A study of Mus musculus with 11 samples.

Results

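Exocytosis is the last step of secretion, in which a vesicle is carried to the plasma membrane, tethered there and fused with it. The exocyst, a complex of several subunits, tethers the vesicle, Rab GTPases and their effectors direct it, and SNARE proteins on the vesicle (VAMPs) and on the target membrane (syntaxins and the SNAP family) zip together to drive fusion. Munc18 and Munc13 proteins prepare the SNAREs, and synaptotagmins and complexins tie fusion to calcium. Neurons release transmitter with a well known set of paralogs (SNAP25, syntaxin 1A, VAMP2, complexins), while blood-derived and other non-neuronal cells use paralogs such as SNAP23, VAMP8, syntaxin 11, Munc13-4 (Unc13d) and RAB27A. The set described here holds 38 genes chosen by symbol, each with exactly 1 row among the 31053 genes of the matrices. They comprise 9 exocyst genes, 6 vesicle SNAREs, 6 syntaxins, 4 SNAP family genes, 3 genes of the Munc18 and tomosyn families, 5 Rab GTPases and 5 priming factors, effectors and regulators.

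The values are counts of RNA molecules (UMIs) in nuclei of frozen cortex from 11 mice, 1 library per mouse. The labels give female mice and the study's methods give male mice for sequencing, and in the counts Xist, transcribed from the inactive X, stood at 794 to 1493 CPM (counts per 1000000 UMIs) in all 11 libraries while the Y-linked gene Uty stood at 1.4 or less. Non-transgenic mice (labelled ikbkb+/+, n = 4, 9.8 to 10.85 months old) had intact Ikbkb, the gene for the kinase IKKβ that switches on NF-κB. P301S mice (ikbkb+/+;P301S+, n = 3, 9.15 to 10.75 months) had in addition the P301S tau transgene, a mutant form of the human protein. Knockout P301S mice (ikbkb-/-;P301S+, n = 2, 8.39 to 9.15 months) had lost floxed Ikbkb through tamoxifen-inducible Cre recombinase at the Cx3cr1 locus, and active IKKβ P301S mice (ikbkbCA;P301S+, n = 2, 9.8 to 10.85 months) expressed a constitutively active IKKβ from the Rosa locus through the same Cre. Per the study's methods tamoxifen was given to controls too, which were littermates lacking Cre, so that the altered kinase and the Cre allele inserted at Cx3cr1 cannot be told apart. Mice of the floxed line and of the active IKKβ line were mixed within the non-transgenic group and within the P301S group, while each altered genotype came from 1 line.

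The 11 libraries held 72007219 to 93205362 UMIs each, and 103065 nuclei were used after filtering. Any pair of libraries shared 15 to 45 barcodes. Nuclei were grouped without the 38 genes, and 6 types were compared in depth: 38354 excitatory neuron-like, 23951 inhibitory neuron-like, 6845 astrocyte-like, 18404 oligodendrocyte-like, 2972 oligodendrocyte precursor-like and 4489 microglia-like nuclei. All 8 microglial markers were raised in the microglia-like cluster, which gave 193 to 735 nuclei and 386265 to 1644087 UMIs per mouse. P301S replicate 3 gave 735 of them, against 261 and 331 in the other P301S mice. No border macrophage cluster was split off. Markers of these cells made up 0.00169 to 0.0419% of the cluster's UMIs in non-transgenic mice, and 0.0141 to 0.0308% in P301S mice. They made up 0.0204 to 0.0211% in knockout and 0.0062 to 0.0219% in active IKKβ P301S mice. The part of such cells in the values below was not tested. In this type Ikbkb itself stood at 155, 124, 140.4 and 137 CPM (here per 1000000 UMIs of the type) in non-transgenic mice, at 148, 133 and 139 in P301S mice, at 111 and 113 in knockout P301S mice and at 165 and 149.8 in active IKKβ P301S mice. The knockout mice held the lowest Ikbkb values, and a deleted exon cannot be read from counts over the whole gene.

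All 38 genes were found in the annotation of the mouse genome (GENCODE M21, build GRCm38, the build of mm10) as protein-coding genes. Most have a row that no other counted gene on the same strand overlaps. The exceptions were Exoc2, of which 0.741% lies under Hus1b, and Vamp3 (chromosome 4, 151047300 to 151057963), which lies wholly inside Camta1 on the same strand (100% of its length). Vamp3 had 0 UMIs in every type and mouse, and its level was not read from these counts. Stx11, whose product is used by cytotoxic lymphocytes and macrophages, had 14 UMIs over all microglia-like nuclei, present in 5 of the 11 mice, and was not measurable at this depth.

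The pathway altered in these mice ends at NF-κB, so the 250 bases before the RefSeq start sites (build GRCm38.p6) were searched for its consensus (the κB site, of 10 bases, on both strands). Of 32851 such windows over all genes 7.25% held a match. Windows were at hand for 31 of the 38 genes (40 windows), and 4 of them held one: Vamp4, Stxbp3, Rab11a and Cplx2. A match is a description of letters and does not show binding. By window that is 4 of 40, a share near that of all windows, and so no feature of the set. The 4 are printed with their surroundings to show the letters that were matched. They are followed by the windows of Stx7, the member called in the genotype tests, and of Vamp8, the member that most separated microglia-like from neuron-like nuclei, neither of which held a match. Each runs 5′ to 3′ on the gene's strand, stops before the annotated gene start, and has the κB match in capitals (2 overlapping matches in Cplx2). The Cplx2 window belongs to a RefSeq start far upstream of the start of the counted gene (chromosome 13, 54371349), and so is not next to it.
Vamp4, chr1:162570371-162570420, plus strand: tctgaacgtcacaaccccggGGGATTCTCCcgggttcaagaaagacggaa
Stxbp3, chr3:108840546-108840595, minus strand: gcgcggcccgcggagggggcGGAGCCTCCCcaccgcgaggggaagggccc
Rab11a, chr9:64737759-64737797, minus strand: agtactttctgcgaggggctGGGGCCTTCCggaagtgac
Cplx2, chr13:54302496-54302546, plus strand: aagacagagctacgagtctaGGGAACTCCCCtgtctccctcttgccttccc
Stx7, chr10:24149039-24149288, plus strand: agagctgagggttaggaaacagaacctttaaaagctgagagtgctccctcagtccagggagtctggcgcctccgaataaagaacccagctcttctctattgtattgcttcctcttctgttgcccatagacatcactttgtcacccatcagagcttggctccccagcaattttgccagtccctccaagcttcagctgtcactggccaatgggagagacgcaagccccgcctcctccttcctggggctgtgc
Vamp8, chr6:72390704-72390917, minus strand: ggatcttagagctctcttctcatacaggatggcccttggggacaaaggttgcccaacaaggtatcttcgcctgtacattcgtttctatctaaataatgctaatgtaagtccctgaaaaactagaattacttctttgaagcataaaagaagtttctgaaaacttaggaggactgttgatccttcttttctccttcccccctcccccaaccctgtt

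The first question was which paralogs stood high in each cell type, as a share of its UMIs. Of the 36 genes with at least 100 UMIs over the 6 types, 16 had their highest median CPM in microglia-like nuclei, 9 in oligodendrocyte-like, 5 in excitatory neuron-like, 3 in inhibitory neuron-like, 2 in astrocyte-like and 1 in oligodendrocyte precursor-like nuclei. For 8 of the 16 the 11 microglia-like values lay wholly above those of the next type (Exoc2, Exoc6, Vamp8, Stx2, Stx7, Snap23, Rab27a and Unc13d). The same held for 4 oligodendrocyte-like genes (Exoc6b, Stxbp3, Sytl2 and Syt11) and 2 excitatory ones (Stx1a and Snap25). In the remaining genes the leading type and its neighbour overlapped over mice. These are levels of 1 gene across types, given as a description with no test. Levels of different genes are not compared because counts were not scaled to length. CPM is a share of the type's UMIs and not a number of copies per nucleus. The per-mouse median UMIs of a nucleus ran from 1443 to 2471 in microglia-like and from 9044 to 14571 in excitatory neuron-like nuclei. The order of types per nucleus can therefore differ, and was not taken. The counts of genes by leading type were not taken over all genes, so they are not read as a feature of the set.

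**Figure D1:**
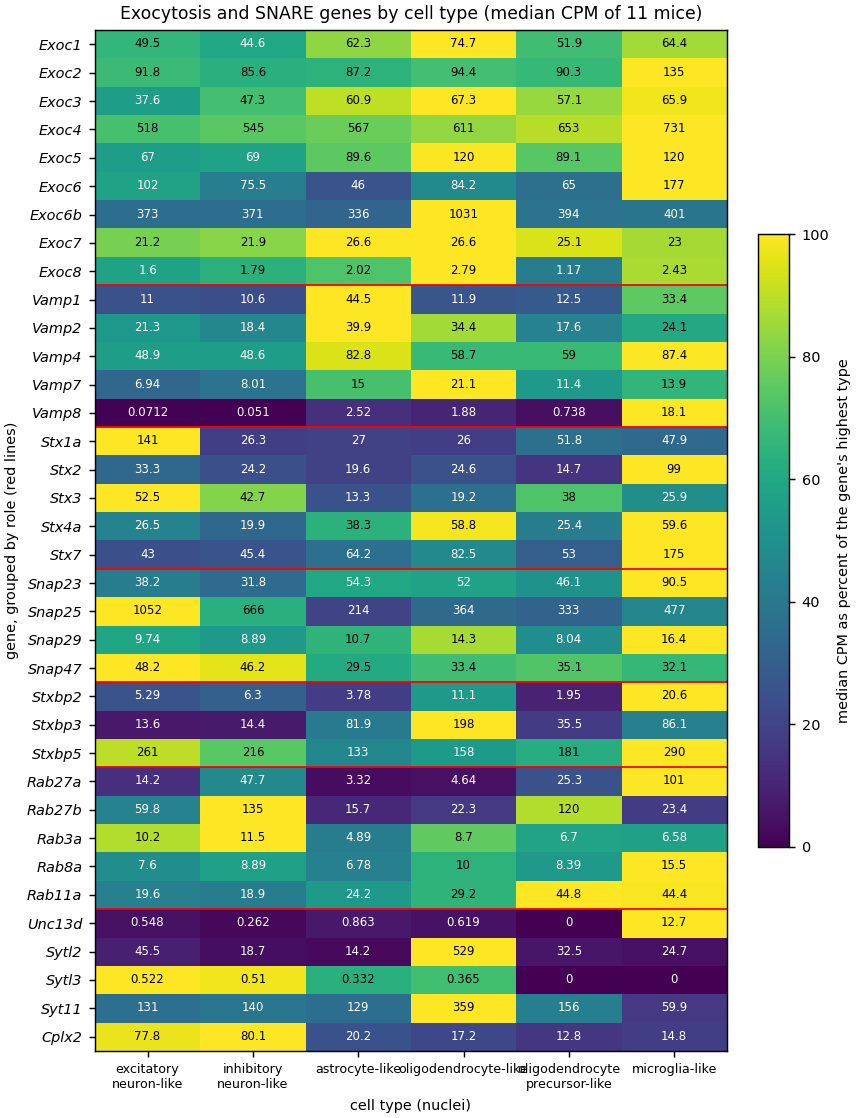
Median CPM over 11 mice of the 36 members with at least 100 UMIs (rows, grouped by role) in 6 cell types (columns), printed in each cell. Colour gives the median as a percent of the gene's highest type. The brightest cells lie in the microglia-like column for 16 genes and in the oligodendrocyte-like column for 9. These counts were not taken over all genes.

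Among the SNAP family, Snap25, the SNARE of synaptic release, had a median of 1052 CPM in excitatory neuron-like nuclei (982 to 1156 over mice) and 666 in inhibitory ones, against 214 in astrocyte-like nuclei. Snap23, its widely used paralog, ran the other way, with 90.5 CPM in microglia-like nuclei (64.8 to 114) and 54.3 in astrocyte-like, 38.2 in excitatory and 31.8 in inhibitory neuron-like nuclei. Snap29, which acts in fusion of autophagosomes, and Snap47 differed less between types, with medians from 8.04 to 16.4 CPM and from 29.5 to 48.2 CPM. The ratio of Snap23 in microglia-like to excitatory neuron-like mean CPM was 2.35, and that of Snap25 was 0.434.

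Among vesicle SNAREs, Vamp8, which serves regulated secretion and late endosomes, had its highest CPM of the 6 types in microglia-like nuclei, with 195 of its 430 UMIs. It stood there at 17.7, 18.0, 18.6 and 18.3 CPM in the non-transgenic mice, at 15.5, 18.1 and 25.2 in P301S mice, at 21.2 and 12.3 in knockout P301S mice and at 26.8 and 16.7 in active IKKβ P301S mice. In excitatory neuron-like nuclei its highest value in any mouse was 0.163 CPM, and in astrocyte-like nuclei its median was 2.52. The groups of mice overlapped throughout. Vamp1, a VAMP known from motor and brainstem synapses, was highest in astrocyte-like nuclei (44.5 CPM) with microglia-like nuclei at 33.4 and both neuron types at 10.99 and 10.6. Vamp2, the main synaptic VAMP, was likewise not highest in neuron-like nuclei as a share of UMIs. Its medians were 39.9 CPM in astrocyte-like, 34.4 in oligodendrocyte-like, 24.1 in microglia-like and 21.3 in excitatory neuron-like nuclei. It had 9329 UMIs over 38354 excitatory neuron-like nuclei and 1143 over 6845 astrocyte-like ones, and levels per nucleus were not compared. Vamp4, of the Golgi and endosomes, had 87.4 CPM in microglia-like and 82.8 in astrocyte-like nuclei, whose ranges overlapped, and Vamp7, of lysosomal secretion, was highest in oligodendrocyte-like nuclei (21.1 CPM).

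Of the syntaxins, Stx1a, the partner of SNAP25 at synapses, had 141 CPM in excitatory neuron-like nuclei and 26.3 in inhibitory ones, and no excitatory value (113.8 to 163) met the next type, the oligodendrocyte precursor-like nuclei (43.5 to 61.5). Its microglia-like counts gave 68.4, 55.8, 51.6 and 47.9 CPM for the non-transgenic mice, 57.0, 21.4 and 44.4 for P301S, 44.1 and 80.2 for knockout P301S and 34.1 and 46.8 for active IKKβ P301S mice, which overlapped. Stx7, which works in late endosomes and lysosomes, had 175 CPM in microglia-like nuclei (117 to 238 over mice) against 82.5 in oligodendrocyte-like and 43.0 in excitatory neuron-like nuclei. Stx2, a plasma membrane syntaxin, had 99.0 CPM in microglia-like and 33.3 in excitatory neuron-like nuclei. Stx4a, the syntaxin of constitutive and insulin-regulated secretion, had 59.6 and 26.5 CPM in the same types, and oligodendrocyte-like nuclei (58.8) were level with microglia-like ones. Stx3, used in apical membranes and ribbon synapses, had 52.5 CPM in excitatory neuron-like nuclei and 25.9 in microglia-like ones.

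Stxbp3, a Munc18 protein that binds syntaxin 4, had 198 CPM in oligodendrocyte-like nuclei (168 to 242), 86.1 in microglia-like and 81.9 in astrocyte-like nuclei, and 13.6 and 14.4 in excitatory and inhibitory neuron-like nuclei. Its microglia-like values were 86.1, 84.6, 92.9 and 116 CPM in the non-transgenic group, 80.3, 69.1 and 99.3 with the tau transgene alone, 71.8 and 69.9 in knockout P301S mice and 102 and 104 in active IKKβ P301S mice. Stxbp2, the Munc18 of cytotoxic cells and platelets, had 20.6 CPM in microglia-like nuclei, with a range that overlapped oligodendrocyte-like nuclei. Stxbp5 (tomosyn), which holds back SNARE assembly, had 290 and 261 CPM in microglia-like and excitatory neuron-like nuclei, which overlapped.

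The Rab27 pair differed in the rank of microglia-like nuclei, while the other types fell in the same order of medians for both genes. No microglial expression was read from the Rab27b counts, as given below. Rab27a, which docks secretory granules and lysosome-related organelles, had 101 CPM in microglia-like nuclei, 47.7 in inhibitory and 14.2 in excitatory neuron-like nuclei, 25.3 in oligodendrocyte precursor-like and under 5 in astrocyte-like and oligodendrocyte-like nuclei (3.32 and 4.64). Rab27b, its paralog in brain and secretory cells, had 135 CPM in inhibitory neuron-like, 120 in oligodendrocyte precursor-like, 59.8 in excitatory neuron-like and 23.4 in microglia-like nuclei. The microglia-like values of Rab27b were 22.8, 23.4, 33.0 and 35.2 CPM in the non-transgenic group, 28.5, 19.7 and 21.2 with the tau transgene alone, 35.1 and 20.6 in knockout P301S mice and 18.2 and 26.1 in active IKKβ P301S mice. Rab27b was the member that varied enough to have entered the clustering had members been allowed. Rab11a, of recycling endosomes, had 44.8 CPM in oligodendrocyte precursor-like and 44.4 in microglia-like nuclei, against 19.6 in excitatory neuron-like nuclei. Rab8a had medians from 6.78 to 15.5 CPM over types, and Rab3a, the synaptic vesicle Rab, from 4.89 to 11.5.

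Of the priming factors and effectors, Unc13d, a Munc13 protein that immune cells need for granule release, had 12.7 CPM in microglia-like nuclei and 0.863 or less in every other type. Its microglia-like values were 10.1, 9.0, 6.19 and 12.7 CPM in the non-transgenic group, 23.3, 11.5 and 9.93 with the tau transgene alone, 13.1 and 16.4 in knockout P301S mice and 15.2 and 14.7 in active IKKβ P301S mice. The knockout and active IKKβ values lay above all 4 non-transgenic ones, on 123 UMIs in all, and the edgeR adjusted p of these contrasts was 0.953 and 0.624. Sytl2, an effector of RAB27, had 529 CPM in oligodendrocyte-like nuclei (352 to 791) and at most 45.5 elsewhere as a median, and Syt11, a synaptotagmin that does not bind calcium, had 359 CPM there and its lowest median in microglia-like nuclei (59.9). Cplx2, a complexin that clamps synaptic SNAREs, had 77.8 and 80.1 CPM in excitatory and inhibitory neuron-like nuclei and 12.8 to 20.2 in the 4 glial types. Sytl3 had 14 UMIs over all microglia-like nuclei and at most 0.522 CPM as a median in any type.

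RNA of the exocyst genes was counted in every type, though Exoc8 was low, with medians from 1.17 to 2.79 CPM. Exoc7 had medians from 21.2 to 26.6 CPM over types and Exoc4 from 518 to 731, while Exoc3 ran from 37.6 in excitatory neuron-like to 67.3 in oligodendrocyte-like nuclei and Exoc5 from 67.0 in excitatory neuron-like to 120 in microglia-like nuclei. The paralogs of the sixth subunit peaked in different types. Exoc6 was highest in microglia-like nuclei (177 CPM, 127 to 255 over mice, against 102 in excitatory neuron-like nuclei), and Exoc6b was highest in oligodendrocyte-like nuclei (1031 CPM, against 401 in microglia-like nuclei). Exoc2 had 135 CPM in microglia-like nuclei and 85.6 to 94.4 in the other types.

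Levels in microglia-like nuclei were set beside 18 neuronal transcripts that microglia should lack, since free RNA in the suspension gives counts in nuclei that do not make the transcript. The ratio of microglia-like to excitatory neuron-like mean CPM ran from 0.0560 (Rbfox3) to 0.573 (Snhg11) over these 18, with a median of 0.290. Of the 36 members with at least 30 UMIs in either type, 29 had a ratio above that range, and 7 lay within it (Sytl2, Stx3, Syt11, Rab27b, Snap25, Stx1a and Cplx2). No microglial expression was read from the counts of these 7, since at such ratios they cannot be told apart from free RNA by this measure. They lay at 0.240 (Cplx2) to 0.553 (Sytl2), and Sytl2 and Syt11 were highest in oligodendrocyte-like nuclei, so that the range of neuronal transcripts says little about them. The same range does not bear on free RNA of oligodendrocytes, in which Stxbp3 and Exoc6b were highest too. The part of free RNA from either source was not tested. Microglia-like nuclei held far fewer UMIs, with a per-mouse median of 1443 to 2471 against 9044 to 14571 in excitatory neuron-like nuclei. The 29 members above the range include Sytl3, Exoc8 and Rab3a, which had 14, 32 and 65 microglia-like UMIs and were too low for the genotype tests. Rab3a (0.634) and Snap47 (0.652) lay just above the range. The share of all genes above it was not taken.

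The highest ratios were 240 for Vamp8, 23.3 for Unc13d, 7.2 for Rab27a and 6.38 for Stxbp3, each higher in microglia-like nuclei of 11 of 11 mice. That of Vamp8 rests on 36 UMIs over the excitatory neuron-like nuclei of all mice, and was 136 with called doublets kept. The lowest were 0.436 for Rab27b, 0.434 for Snap25, 0.363 for Stx1a and 0.240 for Cplx2, each lower in 11 of 11 mice. Of the 36 members 17 had microglia-like values wholly above the excitatory ones and 7 wholly below. Among the 20295 genes with as many UMIs, 20.6% lay wholly above and 15.7% wholly below.

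**Figure D2:**
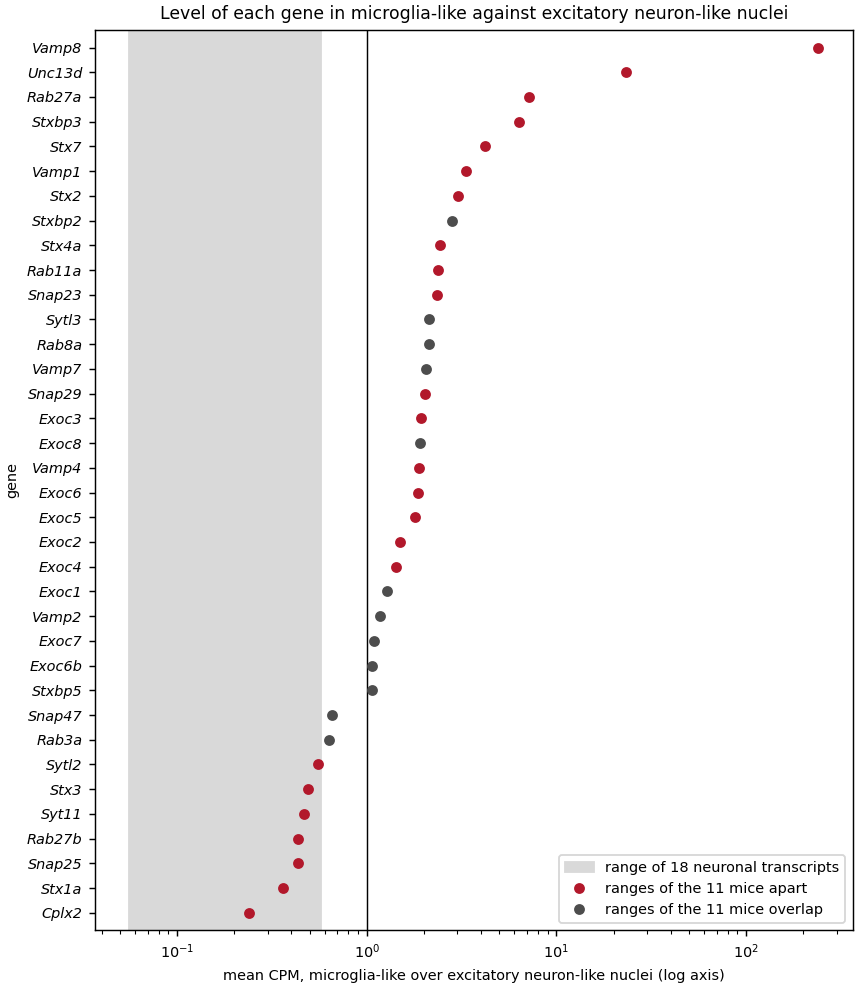
Ratio of mean CPM over 11 mice in microglia-like to excitatory neuron-like nuclei (log axis) for the 36 members with at least 30 UMIs in either type. Red points are genes whose 11 microglia-like and 11 excitatory values do not overlap, the line marks equal levels, and the grey band spans the ratios of 18 neuronal transcripts, 0.0560 to 0.573, which holds 7 members.

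The second question was whether genotype moved these genes in microglia. Counts were summed over the microglia-like nuclei of each mouse and 8985 genes were tested with edgeR, of which 33 were members. Exoc8, Vamp3, Stx11, Rab3a and Sytl3 were too low to be tested. A call needed an adjusted p below 0.05 and a log2 fold change beyond 0.1 in either direction. In short, 1 of 33 members was called in 1 of 5 contrasts, Stx7 in active IKKβ P301S mice against non-transgenic mice, where 3.71% of all genes were called. That share is near the background, so the count is no result about the members as a set, and the call of Stx7 depended on the tool and on single mice. DESeq2 gave a p to 37 members and 20593 genes in each contrast. Over all genes it had 2.14%, 2.01%, 2.7%, 1.07% and 4.37% at an unadjusted p under 0.05 in the 5 contrasts in the order of the next paragraphs. These shares are over more genes than the 8985 of edgeR. It called 3, 0, 100, 0 and 235 genes. In the contrasts with 100 and 235 calls only 8616 and 10612 genes, 33 and 34 members among them, had an adjusted p. The calls there were 1.16% and 2.21% of those genes.

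Between P301S and non-transgenic mice edgeR called 0 of the 33 members, against 4 of 8985 genes (0.0445%, or 0 to 28 genes with 1 mouse left out). At an unadjusted p under 0.05 there were 3 members (Stx7, Rab8a and Snap47), against 8.22% of all genes, while by DESeq2 0 were called and 1 had an unadjusted p under 0.05. The members' median log2 fold change was 0.07, with 19 of 33 above 0, and that of all genes was -0.0025. Stx7 values were 117, 149, 175 and 145 CPM in non-transgenic animals and 163, 211 and 206 in the P301S group, so that 1 P301S mouse lay below the highest non-transgenic one (log2 fold change 0.40 ± 0.16 (SE), edgeR adjusted p = 0.512). Rab8a, a Rab of traffic to the plasma membrane, stood at 15.2, 9.0, 4.13 and 19.7 CPM and at 15.5, 31.3 and 21.8 (0.88 ± 0.40, edgeR adjusted p = 0.574). Snap47 stood at 27.9, 34.2, 28.9 and 46.5 CPM and at 33.7, 19.7 and 19.9 (-0.66 ± 0.28, edgeR adjusted p = 0.528). The groups overlapped in all 3.

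Between knockout P301S and P301S mice edgeR called 0 of the 33 members and 0 of 8985 genes (0.0%). At an unadjusted p under 0.05 there were 3 members (Snap47, Cplx2 and Snap29), against 9.12% of all genes, while by DESeq2 0 were called and 1 had an unadjusted p under 0.05. The median over members was -0.12, with 13 of 33 above 0, beside -0.024 over all genes. Snap47 stood at 47.3 and 37.0 CPM in knockout P301S mice, above all 3 P301S mice (0.95 ± 0.30 on the log2 scale, edgeR adjusted p = 0.443). Cplx2 stood at 25.3 and 28.8 against 18.1, 14.8 and 13.2 in P301S mice (0.86 ± 0.38, edgeR adjusted p = 0.526). Snap29 stood at 14.7 and 16.4 CPM against 12.9, 24.7 and 36.4, which overlapped (-0.86 ± 0.38, edgeR adjusted p = 0.526). With age as a covariate these log2 fold changes were 0.26, 0.39 and -0.048, and the knockout mice included the youngest of the study. That of Snap29 was -0.38 without P301S replicate 3 and -0.50 with breeding line as a covariate.

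The neuronal transcripts moved in the same sums. In knockout P301S against P301S mice 18 of 18 were higher (median 0.36 on the log2 scale), and together they made up 1.93 to 1.96% of microglia-like UMIs in knockout mice against 1.26 to 1.78% in P301S mice. In P301S against non-transgenic mice 16 of 18 were lower (median -0.26), from 1.64 to 1.97% in non-transgenic mice, and none of the 18 was at 0 in any group. Cplx2 is among the members whose microglia-like counts lie within the neuronal ratio range, and Snap47 (0.652) lies just above it. The part of these transcripts in the values of Cplx2 and Snap47 was not tested. Astrocyte markers also made up more of these UMIs in knockout mice (0.0505 to 0.0518%) than in P301S mice (0.0372 to 0.0476%). Oligodendrocyte markers overlapped (0.0356 to 0.0477% and 0.0318 to 0.0413%).

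Between active IKKβ P301S and P301S mice edgeR called 0 of the 33 members, against 136 of 8985 genes (1.51%). With 1 mouse left out the latter count ran from 65 (without P301S replicate 2) to 207 (without P301S replicate 3), and was 70 without active IKKβ replicate 2. At an unadjusted p under 0.05 there were 2 members (Rab27a and Exoc6), against 8.68% of all genes, while by DESeq2 0 were called and 2 had an unadjusted p under 0.05. The median was 0.05 with 19 of 33 above 0, beside -0.0077 over all genes, and the neuronal transcripts had a median of 0.006. Rab27a stood at 68.7 and 87.6 CPM in active IKKβ mice, below all 3 P301S mice at 88.0, 102 and 130.4 (log2 fold change -0.52 ± 0.19, edgeR adjusted p = 0.254). It was -0.33 when P301S replicate 3 was left out and -0.34 when active IKKβ replicate 1 was. Exoc6 stood at 255 and 248 CPM, above 171, 176 and 187 (0.47 ± 0.18, edgeR adjusted p = 0.289), and at 0.29 with breeding line as a covariate.

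Knockout P301S mice against non-transgenic mice gave 0 members called by edgeR, as by DESeq2 (0 at an unadjusted p under 0.05), and 0 of 8985 genes (0.0%). Only Stxbp3 had an unadjusted edgeR p under 0.05, against 4.65% of all genes, at -0.44 ± 0.20 (edgeR adjusted p = 0.93), or -0.26 with breeding line as a covariate. Its knockout values, 71.8 and 69.9 CPM, lay below all 4 non-transgenic values given above. The members' median was -0.011 with 16 of 33 above 0, and 18 of 18 neuronal transcripts were higher in knockout mice (median 0.20).

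In active IKKβ P301S mice against non-transgenic mice edgeR called 1 of the 33 members, against 333 of 8985 genes (3.71%, or 154 genes without active IKKβ replicate 2), and 7 members had an unadjusted p under 0.05, against 13.4% of all genes. By DESeq2 0 were called and 3 had an unadjusted p under 0.05. The 7 were Stx7, Snap23, Exoc6 and Exoc2, which had higher, and Snap25, Cplx2 and Rab27a, which had lower values in active IKKβ mice. The median over the 33 was -0.0084 with 16 above 0, beside -0.014 over all genes. This contrast joins the tau transgene and the active kinase, and shares its mice with the contrasts above.

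Stx7 was the member called. By group, its mean and SD were 147 ± 24.1 CPM for the 4 non-transgenic mice, 193 ± 26.2 for the 3 P301S mice, 172 ± 45.3 for the 2 knockout P301S mice and 232 ± 9.25 for the 2 active IKKβ P301S mice. The active IKKβ mice, at 238 and 225 CPM, lay above the other 9 mice, of which knockout mice stood at 204 and 139.8. Against non-transgenic mice the log2 fold change was 0.62 ± 0.17 (edgeR adjusted p = 0.0360, DESeq2 adjusted p = 0.0713). With breeding line as a covariate it was 0.55 (edgeR adjusted p = 0.134). The edgeR call was also lost with called doublets kept and without non-transgenic replicate 1, 2 or 4, P301S replicate 2 or either active IKKβ mouse, over which the log2 fold change ran from 0.55 to 0.65. Over all 19 alternatives it ran from 0.55 to 0.70, and its adjusted p from 0.0045 to 0.232.

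The other low unadjusted p-values of this contrast are given with their mice. Snap25 stood at 539.5, 477, 555 and 489 CPM in non-transgenic mice, at 557, 411 and 336 in P301S mice, at 475 and 481 in knockout P301S mice and at 350.3 and 368 in active IKKβ mice. Its log2 fold change was -0.55 ± 0.16 (edgeR adjusted p = 0.0648, DESeq2 adjusted p = 0.0633), in counts that lie within the neuronal ratio range, and 15 of the 18 neuronal transcripts were lower too (median -0.22). Snap25 was called with no filter on low counts (edgeR adjusted p = 0.0410) and without P301S replicate 1 (edgeR adjusted p = 0.0178) or 3 (edgeR adjusted p = 0.0191). Cplx2, within that range as well, stood at 17.7, 14.4, 12.4 and 29.6 CPM in non-transgenic mice and at 9.73 and 10.0 in active IKKβ mice (-0.98 ± 0.38, edgeR adjusted p = 0.208), and its value was -0.61 without non-transgenic replicate 4 and -0.52 with called doublets kept. The part of free neuronal RNA in either value was not tested.

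Snap23 stood at 68.4, 90.0, 99.1 and 64.8 CPM in non-transgenic mice, at 95.8, 90.5 and 98.7 in P301S mice, at 71.0 and 84.3 in knockout P301S mice and at 114 and 104 in active IKKβ mice. The log2 fold change was 0.42 ± 0.18 (edgeR adjusted p = 0.29). The active IKKβ mice had the highest values of the 11. Exoc6 stood at 127, 160.2, 241 and 182 CPM in non-transgenic mice and at 158 and 177 in knockout P301S mice, and its non-transgenic values were 127 and 160.2 in the floxed line against 241 and 182 in the active IKKβ line. Its log2 fold change was 0.47 ± 0.17 (edgeR adjusted p = 0.16), or 0.33 with line as a covariate, and it was called without non-transgenic replicate 3 (0.63, edgeR adjusted p = 0.0319). Rab27a stood at 101, 95.4, 103 and 116 CPM in non-transgenic and at 108 and 92.5 in knockout P301S mice, all above the active IKKβ mice (-0.45 ± 0.18, edgeR adjusted p = 0.248, and -0.29 without active IKKβ replicate 1). Exoc2 was at 0.33 ± 0.15 (edgeR adjusted p = 0.361). None of these 4 passed with all mice in the fit.

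**Figure D3:**
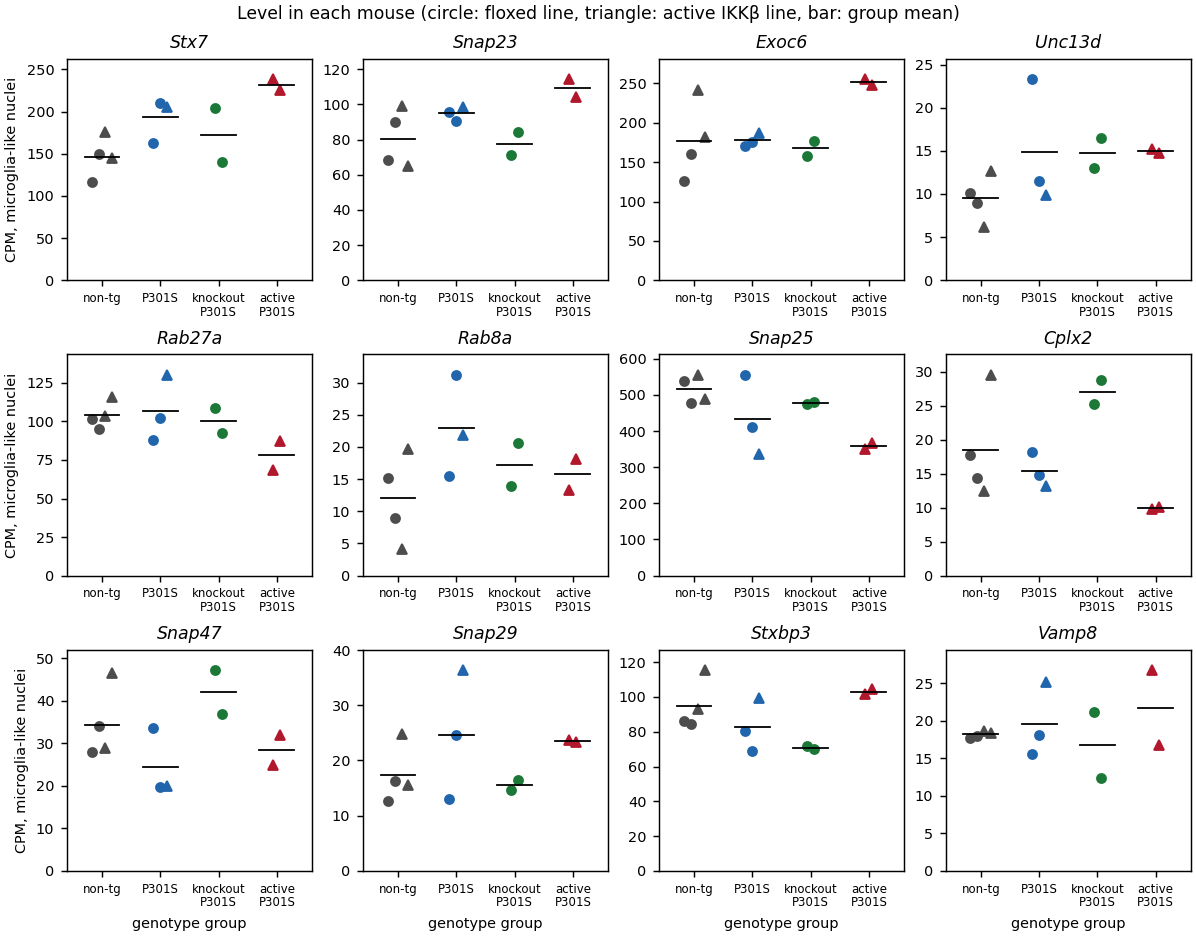
CPM in microglia-like nuclei of each of the 11 mice for 12 members with per-mouse values in the text, by genotype group (circles, floxed line, triangles, active IKKβ line, bars, group means). In Stx7 the active IKKβ mice, at 238 and 225 CPM, lie above the other 9 mice, while in Vamp8 and Rab8a the 4 groups overlap.

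**Figure D4:**
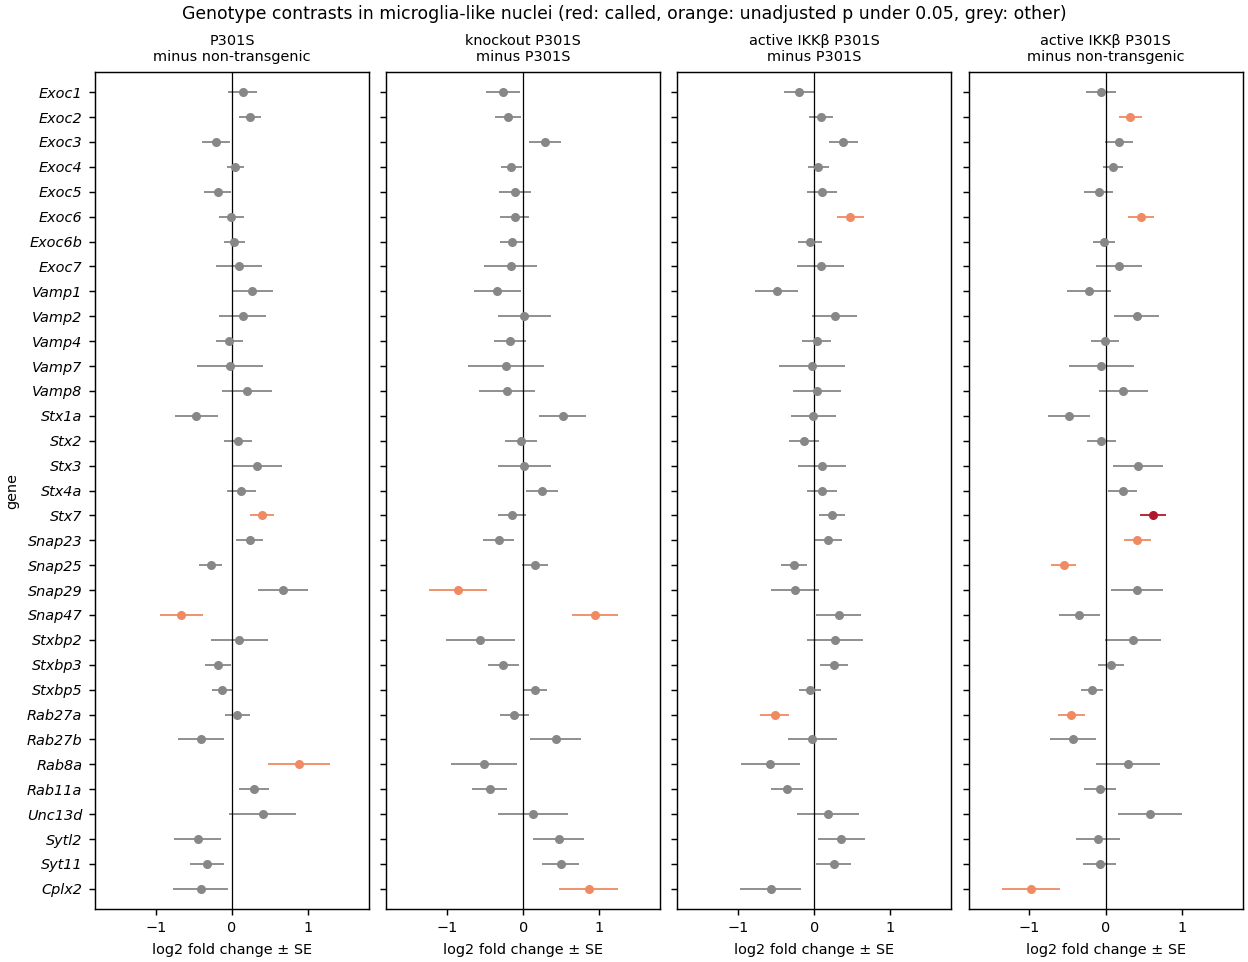
Log2 fold change (bars, SE) of the 33 members tested in microglia-like nuclei, in 4 genotype contrasts fitted with edgeR. The single red point is Stx7 at 0.62 in active IKKβ P301S minus non-transgenic mice, orange points have an unadjusted p under 0.05 with no call, and the other points are grey.

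A further 74 genes of exocytosis, listed by hand and outside the set (other syntaxins, VAMPs, synaptotagmins, Rabs and their regulators), were read in the same fits, of which 56 were tested in microglia-like nuclei. The only edgeR call among them was Vps45, a Munc18 relative of the trans-Golgi and early endosomes, in active IKKβ P301S against P301S mice. That is 1 of 56 where 1.51% of all genes were called, a share near the background, and 2 of the 56 had an unadjusted p under 0.05 against 8.68% of all genes. It stood at 90.0 and 95.0 CPM in active IKKβ mice and at 51.8, 59.2 and 43.7 in P301S mice, with 60.8, 61.2, 74.3 and 88.8 in the non-transgenic group (log2 fold change 0.87 ± 0.20, edgeR adjusted p = 0.0252, DESeq2 adjusted p = 0.156). The call was also lost with breeding line as a covariate (0.84, edgeR adjusted p = 0.116) and when P301S replicate 1 or 3 or either active IKKβ mouse was left out, over which it ran from 0.69 to 0.92. A wide spread of Vps45 stood in other types too. In excitatory neuron-like nuclei both active IKKβ mice (81.0 and 88.0 CPM) and non-transgenic replicate 4 (84.3) stood above the other 8 mice (52.0 to 59.6). Its median and highest CPM over mice were 54.2 and 86.6 in inhibitory neuron-like and 54.6 and 90.7 in astrocyte-like nuclei. They were 39.4 and 68.5 in oligodendrocyte-like and 72.4 and 116 in oligodendrocyte precursor-like nuclei. In the other 4 microglial contrasts edgeR called 0 of the 56, and DESeq2 called 0. EdgeR had 3, 5, 0 and 3 at an unadjusted p under 0.05 in P301S, knockout and the knockout and active IKKβ groups against non-transgenic mice, against 8.22%, 9.12%, 4.65% and 13.4% of all genes. In excitatory neuron-like nuclei of active IKKβ against P301S mice DESeq2 called 1 of the 74, where it called 0.0572% of all genes with an adjusted p.

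In excitatory neuron-like nuclei 35 members were tested among 18045 genes, Vamp3, Vamp8 and Stx11 being too low. No member (0) was called by edgeR or by DESeq2 in P301S, knockout or active IKKβ mice, against 6 genes (0.0333%), 0 genes (0.0%) and 1 gene (0.00554%) over all genes by edgeR. At an unadjusted p under 0.05 edgeR had 0, 2 and 3 members, against 2.62%, 8.89% and 5.5% of all genes, and DESeq2 had 0, 2 and 3 of 37 members, against 1.45%, 5.44% and 3.54% of all genes. The knockout members were Stx2 (0.23 ± 0.11, edgeR adjusted p = 0.558) and Rab11a (-0.22 ± 0.091, edgeR adjusted p = 0.541). The active IKKβ ones were Vamp1 (0.33 ± 0.11), Rab11a (-0.24 ± 0.092) and Cplx2 (0.41 ± 0.19), each with an edgeR adjusted p of 0.826. With breeding line as a covariate Cplx2 was at 0.14, and without active IKKβ replicate 2 Vamp1 was at 0.21. Rab11a thus stood at 18.0 and 17.6 CPM in knockout and 17.4 and 18.5 in active IKKβ mice, below the 3 P301S mice (20.7, 20.2 and 22.5) that both contrasts share. The synaptic SNARE Snap25 ran from 982 to 1156 CPM over the 11 mice and its groups overlapped. Median log2 fold changes over members were -0.023, -0.0063 and 0.023, beside -0.003, 0.0043 and 0.0037 over all genes.

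In inhibitory neuron-like nuclei 34 members were tested among 16701 genes. EdgeR and DESeq2 again called 0 in P301S, knockout and active IKKβ mice, and edgeR called 3 genes (0.018%), 0 genes (0.0%) and 0 genes (0.0%) of all. DESeq2 called 7, 1 and 4 genes, and the edgeR count of 0 for active IKKβ mice was 173 without active IKKβ replicate 1 and 131 without replicate 2, with 0 members called in either. At an unadjusted p under 0.05 there were 0, 1 and 0 members by either tool, against 3.29%, 6.81% and 4.14% of all genes by edgeR and 1.84%, 3.57% and 2.4% by DESeq2. The 1 member was Stx1a in knockout mice (0.39 ± 0.15, edgeR adjusted p = 0.717), at 28.9 and 31.5 CPM against 23.3, 20.7 and 26.3 in P301S mice. This type pooled 5 clusters whose shares differed widely between mice. The largest, led by genes such as Drd2, Adora2a and Rgs9, made up 21.7 to 67.2% of it. Rab27a, for example, stood at 30.8 and 65.9 CPM in the active IKKβ mice. The part of that make-up in these values was not tested. Inhibitory levels given earlier are likewise those of the whole pool and not of any 1 cluster. They are not read as levels of cortical interneurons alone.

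Whether genotype acted differently in microglia-like and excitatory neuron-like nuclei was tested by the interaction of type and genotype with mouse as a block. It covered 18165 genes, of which 37 were members. These include Exoc8, Stx11, Rab3a and Sytl3, too low for the tests in microglia-like nuclei, and Vamp8, too low in excitatory ones. For them a missing call says little (Stx11 in P301S mice, 7.38 ± 4.51). In microglia-like nuclei alone 8985 genes were tested, so the shares over all genes below include genes too low to show a difference. EdgeR called 0 members in each of the 3 contrasts, with TMM or with DESeq2's size factors, and 4 had an unadjusted p under 0.05 in each. Over all genes it called 0.264%, 0.0716% and 1.06% in the P301S, knockout and active IKKβ contrasts, and 5.53%, 6.4% and 6.67% had an unadjusted p under 0.05. The lowest member p was that of Snap47 in knockout mice, whose change was higher in microglia-like nuclei by 1.04 ± 0.31 on the log2 scale (edgeR adjusted p = 0.231). Exoc6 in active IKKβ mice followed, higher by 0.54 ± 0.19 (edgeR adjusted p = 0.223). A difference between the types was therefore not shown for any member.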

How the data were processed

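Nuclei of frozen cortex were profiled with the 10x 3′ v3 kit. The authors aligned reads to mm10 with Cell Ranger 3.1.0, counting unspliced RNA too, and deposited raw UMI counts per gene and barcode for each mouse. From the 114118 barcodes, nuclei were kept that had between 300 and 8000 genes and no more than 5% of UMIs from mitochondrial genes, 9474 doublets called from simulated pairs were left out, and the rest were clustered (2000 variable genes without the members, 15 components, Leiden at resolution 0.1). A cluster was named from at least 3 raised markers, unless it held under 50 nuclei, had more markers of another type among its 10 leading genes, or had a median UMI count under 0.333 of its samples' with none of its markers among those genes. The last left a cluster of 5975 nuclei led by mitochondrial genes unnamed.

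Counts were summed per mouse and type. CPM are counts per 1000000 UMIs of that sum. Differences were tested with edgeR 4.0.16 (TMM, filterByExpr, quasi-likelihood, all 11 mice in 1 fit, Benjamini-Hochberg over all genes), with DESeq2 1.42.0 as an alternative. The tests were tried on simulated counts first. Members and lists were chosen with earlier results of these data known. Values per mouse are given for members that were called, that had one of the 6 lowest unadjusted p-values under 0.05 in a microglial contrast, or that had the 4 highest or lowest type ratios. Replicates were separate mice. Depth limits low genes, and the spread between mice limits groups of 2.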

Additional observations from a re-analysis of the deposited data

Results flagged for a closer look

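The check for single mice far from the rest was run in groups of 4 or more, here the non-transgenic group, and 5 of 109 sets of values had 1 mouse far from the other 3 (Dixon's test at 95%), which is 4.59%, and chance flags about 1 in 20. In microglia-like nuclei Exoc3 stood at 91.8 CPM in non-transgenic replicate 2 and between 64.0 and 65.9 in the others. In inhibitory neuron-like nuclei replicate 4 was lowest for Exoc1 (39.6 CPM, others 44.6 to 45.5), Exoc6b (313 CPM, others 376 to 387) and Stx7 (36.1 CPM, others 45.4 to 47.2), and replicate 2 was lowest for Exoc7 (17.4 CPM, others 21.6 to 22.3). EdgeR called no member (0 of 37) for a genotype effect that differed between microglia-like and excitatory neuron-like nuclei. The 37, like all genes in that fit, include some too low in microglia-like or excitatory neuron-like nuclei to show a difference. In each contrast 4 members had an unadjusted p under 0.05. Over all genes 0.264%, 0.0716% and 1.06% were called in the P301S, knockout and active IKKβ contrasts, and 5.53%, 6.4% and 6.67% had an unadjusted p under 0.05.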

How the results depend on the processing

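Counts of members called were recomputed under 194 alternatives of 14 results, and 181 gave the same count. The 13 that did not all concern active IKKβ P301S against non-transgenic mice, where 1 member was called. The count was 0 with DESeq2, with breeding line as a covariate and with called doublets kept, 2 with no filter on low counts, and 0 to 2 when 1 mouse was left out. The second member was Snap25 with no filter and without P301S replicate 1 or 3, and Exoc6 without non-transgenic replicate 3. The medians over members, all near 0, moved by less than the median SE of a member in all 191 alternatives. That is a wide limit for a median over many genes, so it says little on their stability. They crossed 0 under at least 1 alternative in 9 of 11 comparisons. None of the 22 fold changes of single members with an unadjusted p under 0.05 and none of the 8 ratios recomputed reversed. Of all members tested in microglia-like nuclei, 11 (P301S) to 22 (knockout against non-transgenic) of 33 changed sign under at least 1 alternative. The ratio of Vamp8 fell from 240 to 136 and that of Rab27a from 7.2 to 6.34 with called doublets kept. Where a lone mouse stood for a group, it was assumed to vary like the others.

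Over all genes in microglia-like nuclei edgeR's counts were 4, 0, 136, 0 and 333 in P301S, knockout, active IKKβ and the last 2 groups against non-transgenic mice. They were 123, 37, 344, 35 and 548 without a filter, and 32 (P301S), 72 (active IKKβ), 3 (knockout against non-transgenic) and 198 (active IKKβ against non-transgenic) with line as a covariate. With 1 mouse left out they ran from 0 to 28, 0 to 2, 65 to 207, 0 to 2 and 154 to 402. DESeq2 called 13 and 10 genes in excitatory neuron-like nuclei of knockout and active IKKβ mice, against 0 and 1. Leaving out either active IKKβ mouse gave 173 or 131 calls in inhibitory neuron-like nuclei, against 0, with 0 members.

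Whether the number at the end of the title pairs mice was not settled. Deviations from the group mean correlated at -0.08 to 0.146 between same-numbered mice of different groups and at -0.146 to 0.08 between the others. In groups of 2 these deviations are opposites by construction, and equal numbers of both lines were joined, so the check cannot decide. With the title number as a block, 1 member was called in active IKKβ P301S against non-transgenic mice, beside 306 of 8985 genes (3.41%). In every other contrast 0 members were called, and at most 139 genes (1.55%).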
